A study of Mus musculus with 8 samples.

Results

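The 10 genes described here belong to the acute phase response and were followed in epididymal white adipose tissue (eWAT), the visceral fat pad beside the epididymis. They are Orm1, Orm2, Lcn2, Hp, Cp, Saa3, Lbp, Ptx3, Serpina3n and Itih4, chosen by gene symbol as acute phase proteins that fat itself makes. Each had 1 probe set annotated to its symbol alone, so all 10 were found among the 22180 genes that the array named. The tissue came from male mice on a C57BL/6J background at 14 weeks of age, either wild type (WT, n = 3) or Abhd15 knockout (KO, n = 5). All mice were fasted overnight and then given chow for 1 h, so both genotypes were in the early refed state. Abhd15 encodes an alpha/beta-hydrolase domain protein found in adipocytes. The sources used here do not say how the deletion was made or in which cells.

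Acute phase proteins are plasma proteins whose synthesis changes within hours of infection, injury or inflammation. The liver is their main source, where interleukin-6 acting through STAT3, interleukin-1 acting through NF-kB, C/EBP factors and glucocorticoids control their genes. Adipocytes, and the stromal and immune cells around them, make a subset of these proteins and release them into the blood, and several have been studied as adipokines of obese fat. Levels below are log2 values, made by the authors with RMA (background correction, normalization across arrays and summary of the probes of a set). A log2 fold change is the KO mean minus the WT mean.

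Promoter windows of 3 genes are shown because they belong to the genes on which the results turn: Orm2 and its neighbour Orm3, which varied together across arrays, and Itih4, the member with the clearest lower values in KO. Each window runs from 250 bases before to 50 bases after the RefSeq start site, read 5′ to 3′ along the gene (build GRCm38.p6, all 3 on the plus strand). Capitals mark matches to the motifs searched.
Orm2, chr4:63362199-63362498: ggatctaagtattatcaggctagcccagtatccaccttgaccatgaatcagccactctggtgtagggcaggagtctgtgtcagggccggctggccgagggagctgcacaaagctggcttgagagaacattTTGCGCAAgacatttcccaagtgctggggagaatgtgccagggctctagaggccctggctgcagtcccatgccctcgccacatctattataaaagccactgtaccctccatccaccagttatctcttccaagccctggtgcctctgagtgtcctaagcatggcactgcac
Orm3, chr4:63355908-63356207: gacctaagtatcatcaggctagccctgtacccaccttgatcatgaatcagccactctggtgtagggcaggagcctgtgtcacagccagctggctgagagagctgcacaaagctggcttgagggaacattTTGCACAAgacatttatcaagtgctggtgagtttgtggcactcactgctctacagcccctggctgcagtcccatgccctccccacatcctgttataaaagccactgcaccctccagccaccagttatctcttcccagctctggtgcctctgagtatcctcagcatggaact
Itih4, chr14:30886226-30886525: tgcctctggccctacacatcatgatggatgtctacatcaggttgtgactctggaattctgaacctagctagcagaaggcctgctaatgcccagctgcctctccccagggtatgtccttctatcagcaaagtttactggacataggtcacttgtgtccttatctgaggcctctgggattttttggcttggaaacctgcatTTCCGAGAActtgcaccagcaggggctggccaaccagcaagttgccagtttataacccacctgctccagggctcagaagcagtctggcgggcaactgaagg
Of the 10 members, 7 had a window in the RefSeq table (Cp had 2), and Orm1, Hp and Lbp are without one here. The capitals in Orm2 and Orm3 match the C/EBP motif TTNNGCAA (either strand), which starts at position -120 in Orm2 and -121 in Orm3 when the start site is 0. The Orm2 and Orm3 windows were 86.6% identical over 305 aligned columns. The C/EBP motif was found in 5 of the 7 members with a window (Saa3, Lcn2, Orm2, Cp and Ptx3) and in 10.8% of all 32841 windows of the same length. The capitals in Itih4 match the STAT motif TTCNNNGAA, at position -51, found in 1 of the 7 members and in 8.30% of all windows. Serpina3n was the only member to match the NF-kB motif searched (in 1.63% of all windows) and the glucocorticoid receptor motif (in 0.475%). All motifs were searched on both strands, and no matches overlapped. A match is a string of letters and was not tested as a binding site.

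The tissue carried its defining markers: all 8 adipocyte markers measured lay above the level filter used for testing (3.61, the median of all gene means). Arrays differed in several ways that touch the results. KO 1 and KO 2 stood apart in 10 immediate early genes, whose mean was 7.06 and 7.07 there, 6.18 in KO 3, 5.04 to 5.52 in WT and 5.28 to 5.53 in KO 4 and KO 5. Slc4a1, the red cell anion exchanger and the only erythroid marker measured, was at 4.72 and 5.28 in KO 1 and KO 2 and at 2.61 to 3.11 in the other arrays. The mean of 10 epididymis and seminal duct markers was 3.25 in WT 1 and 4.13 in KO 4 against 1.96 to 2.28 elsewhere. For 6 testis markers, WT 1 (mean 6.83), WT 2 (5.57) and KO 4 (5.21) exceeded the other arrays (3.60 to 4.14), and KO 5 had the lowest array weight (0.335). Abhd15 itself had 2 probe sets, and only values of the set with the higher mean are given here. They were 6.36, 6.45 and 6.15 in WT and 5.77, 6.07, 6.27, 5.60 and 5.75 in KO 1 to KO 5. The array labelled KO 3 thus lay inside the WT range. Whether these probes lie in the deleted part is not given, so they do not check the labels.

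No member passed the adjusted threshold in KO against WT, and neither did any of the 11090 genes tested (0% called, limma, Benjamini-Hochberg adjusted p under 0.05). In whole tissue, fewer cells of a type and less RNA per cell cannot be told apart. At an unadjusted p under 0.05, limma called 1164 of the 11090 genes (10.5%), 448 higher in KO (4.04%) and 716 lower (6.46%). Of the 9 members above the level filter, Orm1, Orm2 and Cp were among the higher and Itih4 among the lower. Orm2 passed the filter only through its KO values, since all 3 WT values lay below 3.61. Without the filter, the same 4 of all 10 members had an unadjusted p under 0.05, against 8.44% of 22180 genes. Orm1 (higher in KO) and Itih4 (lower) were the 2 of 9 members whose groups did not overlap, which 8.53% of all tested genes showed, 2.99% with KO higher and 5.54% with KO lower. The median log2 fold change of the 9 tested members, Orm2 among them, was 0.34, against -0.03 over all tested genes, with 5 higher and 4 lower. Without the filter the median was 0.27 over all 10 members, against 0.01 over all 22180 genes. Without WT 2 the 2 non-overlapping members became 4. Groups with fewer arrays separate more easily in any gene. The share over all genes was not computed for that setting, so nothing is drawn from this count. Without WT 1 the 1164 genes became 745, and without KO 5 a total of 5 genes passed the adjusted threshold. The count of 4 members with an unadjusted p under 0.05 fell to 1 (Itih4) without WT 3, where the 1164 genes became 909. It fell to 1 (Itih4) without KO 2 (890 genes), and to 2 (Orm1 and Itih4) without both KO 1 and KO 2 (1052 genes). With the replicate number as a block, no member passed, 2 genes did, and limma gave 1997 genes an unadjusted p under 0.05.

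**Figure D1:**
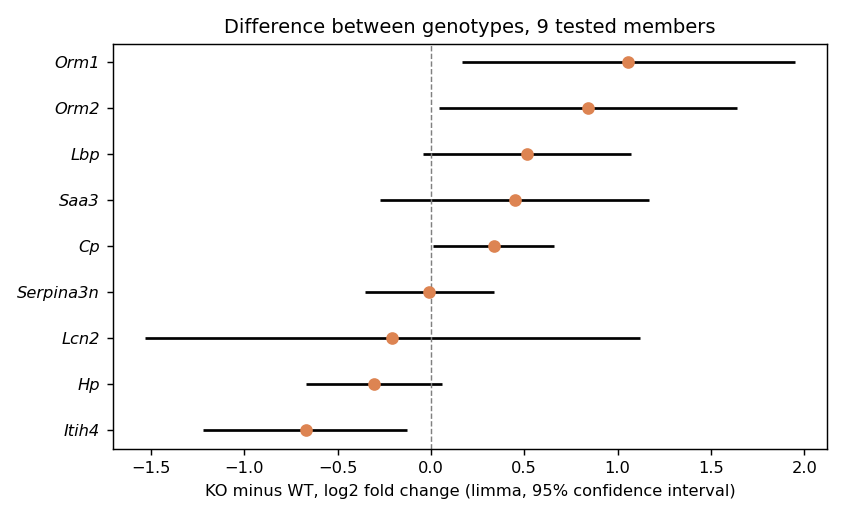
Log2 fold change of the 9 tested members (KO minus WT, points) with the 95% confidence interval from limma (lines), before any adjustment for the number of genes. The intervals of Orm1, Orm2 and Cp lie above 0 and that of Itih4 lies below 0, while the other 5 include 0.

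**Figure D2:**
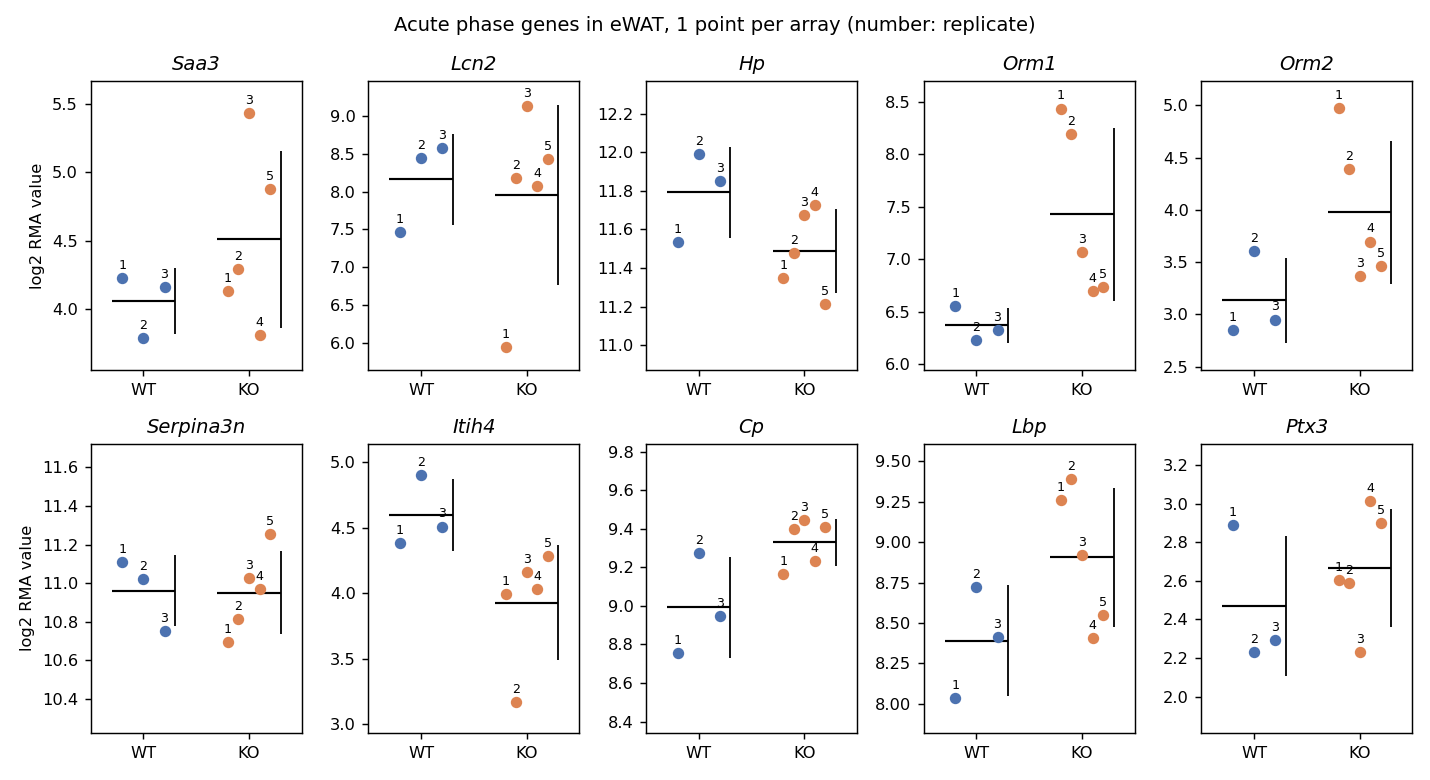
Log2 RMA value of each member (vertical axis, scaled separately for each gene) in the 3 WT and 5 KO arrays, with the replicate number beside each point, the group mean as a horizontal line and 1 SD to either side as a vertical line. All 5 KO points lie above the WT points for Orm1 and below them for Itih4, and the groups overlap in the other 8 genes.

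The alpha-1-acid glycoproteins, or orosomucoids, are small plasma lipocalins that bind drugs and lipids and dampen immune responses. Orm1 was at 6.55, 6.24 and 6.32 in WT 1 to WT 3 and at 8.44, 8.19, 7.07, 6.70 and 6.74 in KO 1 to KO 5. All 5 KO arrays lay above all 3 WT arrays, but KO 1 and KO 2 lay far above the other KO arrays, and KO 4 was only just above WT 1. This is a log2 fold change of 1.06 (SE 0.399), a ratio of 2.08, with an unadjusted p of 0.0244 and an adjusted p of 0.400 in limma. An exact permutation test (two-sided) gave p = 0.0357, the smallest that 3 against 5 arrays allows and not adjusted. Without KO 1 and KO 2 the log2 fold change was 0.47 (SE 0.168, adjusted p = 0.441), and the remaining KO arrays still did not overlap WT.

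Orm2, a second orosomucoid, was at 2.85, 3.60 and 2.95 in WT and at 4.97, 4.39, 3.37, 3.70 and 3.46 in KO 1 to KO 5. KO 1, KO 2 and KO 4 lay above all WT arrays, whereas KO 3 and KO 5 lay below WT 2. KO exceeded WT by 0.84 on the log2 scale (SE 0.358, adjusted p = 0.450), and 0.37 (SE 0.218) without KO 1 and KO 2. Orm3 is no member but lies between Orm1 and Orm2 on chromosome 4. It was at 3.86, 4.30 and 4.46 in WT and at 5.90, 5.29, 4.22, 4.59 and 4.13 in KO 1 to KO 5. Its log2 fold change was 0.62 (SE 0.377, adjusted p = 0.592), and 0.10 (SE 0.205) without KO 1 and KO 2. Thus KO 1 was highest and KO 2 next in each of the 3 orosomucoid genes. These genes are close copies, and probes of one may read transcripts of another, so the 3 sets of values are not independent.

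The immediate early genes are given beside these values because their mean, though not each gene (Jun was at 8.08 and 8.13 in KO 1 and KO 2, below WT 1 at 8.22), was highest in the same arrays as the orosomucoids. Of 10 such genes, 10 had higher means in KO and 4 (Fos, Fosb, Egr2 and Nr4a1) an unadjusted p under 0.05. Fos, Fosb and Egr2 had WT means below 3.61 and passed the level filter only through their KO values, so this count supports nothing. The median log2 fold change of the list was 0.83, and 0.27 without KO 1 and KO 2. The log2 of their summed level ranged from 9.39 to 9.83 in WT and from 9.49 to 11 in KO, and none had a mean over all arrays below the level filter. Their part in the Orm1, Orm2 and Lbp values was not tested.

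**Figure D3:**
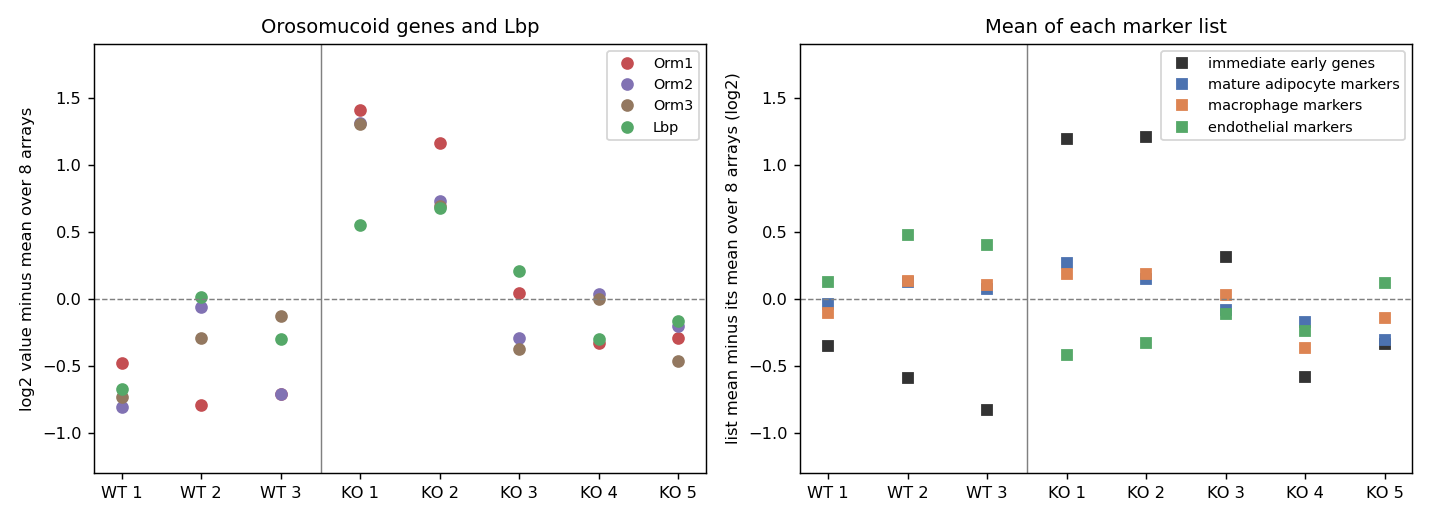
Left, log2 value of Orm1, Orm2, Orm3 and Lbp minus the gene's mean over the 8 arrays, by array. Right, the mean of 4 marker lists, centred in the same way. In KO 1 and KO 2 the 3 orosomucoid genes, Lbp and the immediate early genes are the highest of the 8 arrays, while the endothelial markers lie at their lowest.

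The genes most like Orm1 and Orm2 across the 8 arrays were sought by the root mean square difference between centred log2 values, over 10576 named genes. For Orm1, whose own values had a root mean square of 0.781 about their mean, the nearest 5 were Cidea (0.200), Grb14 (0.205), Myl6b (0.225), Ccn1 (0.284) and Egr2 (0.297). Cidea is a lipid droplet protein of thermogenic fat, Grb14 an inhibitor of the insulin receptor, and Ccn1 and Egr2 are rapidly induced genes. For Orm2 (0.664) they were Btc (0.173), Tspan17 (0.191), Cidea (0.218), Orm3 (0.244) and Hfe (0.254). Btc encodes a ligand of the epidermal growth factor receptor and Hfe a regulator of hepcidin. Among the members, Lbp was nearest to Orm2 (0.376) after Orm1 (0.372). These are descriptions of 8 arrays from the same tissue, in which KO 1 and KO 2 carry most of the variation.

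Hp, Cp and Lcn2 handle iron, copper or haemoglobin, and the acute phase response withholds iron from microbes. Haptoglobin, encoded by Hp, captures free haemoglobin. It was at 11.53, 11.99 and 11.85 in WT and at 11.35, 11.48, 11.68, 11.72 and 11.21 in KO 1 to KO 5. KO 1, KO 2 and KO 5 lay below all WT arrays and the other two lay within the WT range. Its log2 fold change was -0.31 (SE 0.163, adjusted p = 0.545), and -0.49 without WT 1 and KO 4.

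Ceruloplasmin, encoded by Cp, is a copper-carrying ferroxidase. Its values were 8.75, 9.28 and 8.95 in WT and 9.17, 9.40, 9.45, 9.23 and 9.41 in KO 1 to KO 5. KO 2, KO 3 and KO 5 were above all WT arrays, while WT 2 exceeded KO 1 and KO 4. KO exceeded WT by 0.34 on the log2 scale (SE 0.146, adjusted p = 0.456), and by 0.22 without WT 1.

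Lcn2 encodes lipocalin 2, which binds bacterial siderophores. It had the widest spread of the 10 members, 3.18 log2 units over the 8 arrays. Values were 7.47, 8.44 and 8.57 in WT and 5.95, 8.18, 9.14, 8.07 and 8.43 in KO 1 to KO 5. KO 1 was the lowest and KO 3 the highest of all arrays, on either side of WT. The log2 fold change was -0.21 (SE 0.595, 95% confidence interval -1.53 to 1.12, adjusted p = 0.928). It was 0.29 without KO 1 and 0.39 without KO 1 and KO 2, so that its direction depended on KO 1.

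The nearest genes to Lcn2 in pattern (own root mean square 0.902) were Igsf11 (0.298), Cfi, the complement factor I (0.346), Fbp1 of gluconeogenesis (0.395), Calml4 (0.406) and Sec14l4 (0.416). KO 1 was the lowest array for all 5 of them, which their choice by likeness to Lcn2 largely fixed in advance. The mean of the 12 mesothelial markers was lowest in KO 1 (5.44), with WT arrays between 5.70 and 5.89 and KO 2 to KO 5 between 5.86 and 5.97. This did not hold for each gene. In KO 1, Msln (5.74) and Lrrn4 (5.73) lay above all WT arrays, and Krt18 (4.525) and Bnc1 (3.17) lay below them. The log2 of the summed level of the 12 markers was 9.70 to 9.88 in WT and 9.57 to 10.1 in KO. None of the 12 had a mean over all arrays below the level filter. Neutrophils are a known source of Lcn2, and all 10 neutrophil markers had means over the 8 arrays below the level filter, although Ltf was at 5.59 in KO 4. Their mean was 2.11 to 2.15 in WT and 2.43, 2.36, 2.05, 2.43 and 2.09 in KO 1 to KO 5. The part of mesothelial cells and of neutrophils in the Lcn2 values was not tested.

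Saa3, Lbp and Ptx3 act in the recognition of microbes and in lipoprotein traffic. Saa3 is the serum amyloid A that mouse adipocytes and macrophages make. Its values were 4.23, 3.79 and 4.16 in WT and 4.13, 4.29, 5.43, 3.81 and 4.88 in KO 1 to KO 5. KO 3 and KO 5 were well above WT and KO 2 just above it, while KO 1 and KO 4 lay inside the WT range. KO exceeded WT by 0.45 on the log2 scale (SE 0.325, adjusted p = 0.659), and by 0.22 without KO 3. Saa3 and Orm1 thus differed in their highest array: KO 3, the highest for Saa3, was the third highest for Orm1, and KO 1, the highest for Orm1, lay at WT values for Saa3.

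Lipopolysaccharide-binding protein, encoded by Lbp, passes bacterial lipopolysaccharide to CD14 and the TLR4 complex. It was at 8.04, 8.72 and 8.41 in WT and at 9.26, 9.39, 8.92, 8.41 and 8.55 in KO 1 to KO 5. KO 1, KO 2 and KO 3 lay above all WT arrays and KO 4 and KO 5 lay within them. Its log2 fold change was 0.51 (SE 0.25, adjusted p = 0.50), 0.34 without WT 1 and 0.23 (SE 0.216) without KO 1 and KO 2. With the replicate block it was 0.80 (limma unadjusted p = 0.00420 against 0.0668 without the block, adjusted p = 0.147). That fit rests on KO 1 to KO 3, because KO 4 and KO 5, the lowest KO arrays for Lbp, have no WT array of the same number.

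Pentraxin 3, encoded by Ptx3, is a soluble pattern recognition protein made outside the liver. Its values lay below the level filter in all arrays, at 2.89, 2.23 and 2.29 in WT and 2.61, 2.59, 2.23, 3.02 and 2.90 in KO 1 to KO 5. The groups overlapped, the KO minus WT difference was 0.20, and an exact permutation test gave p = 0.393 (two-sided). At such dim values RMA compresses differences.

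The last 2 members are related to protease inhibitors. Serpina3n, a serpin that inhibits granzyme B and cathepsin G, was at 11.11, 11.02 and 10.75 in WT and at 10.69, 10.81, 11.03, 10.97 and 11.25 in KO 1 to KO 5. KO 1 was the lowest and KO 5 the highest of all arrays, and the groups overlapped. The log2 fold change was -0.01 (SE 0.155, 95% confidence interval -0.355 to 0.336, adjusted p = 0.988), and its sign turned under several settings. Serpina3n belongs to a cluster of near copies, so probes may read related transcripts.

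Itih4 belongs to the heavy chain family of inter-alpha-trypsin inhibitor, a family that binds hyaluronan in the matrix. It was at 4.38, 4.91 and 4.51 in WT and at 3.99, 3.17, 4.16, 4.03 and 4.29 in KO 1 to KO 5. All KO arrays lay below all WT arrays, with KO 2 far below the rest and KO 5 close to WT 1. Itih4 thus had a log2 fold change of -0.67 (SE 0.245, 95% confidence interval -1.22 to -0.126), with an unadjusted p of 0.0207 and an adjusted p of 0.378 in limma. An exact permutation test gave p = 0.0357 (two-sided), the smallest possible and not adjusted. Without KO 1 and KO 2 the log2 fold change was -0.44 (SE 0.177, adjusted p = 0.491), still with no overlap.

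**Figure D4:**
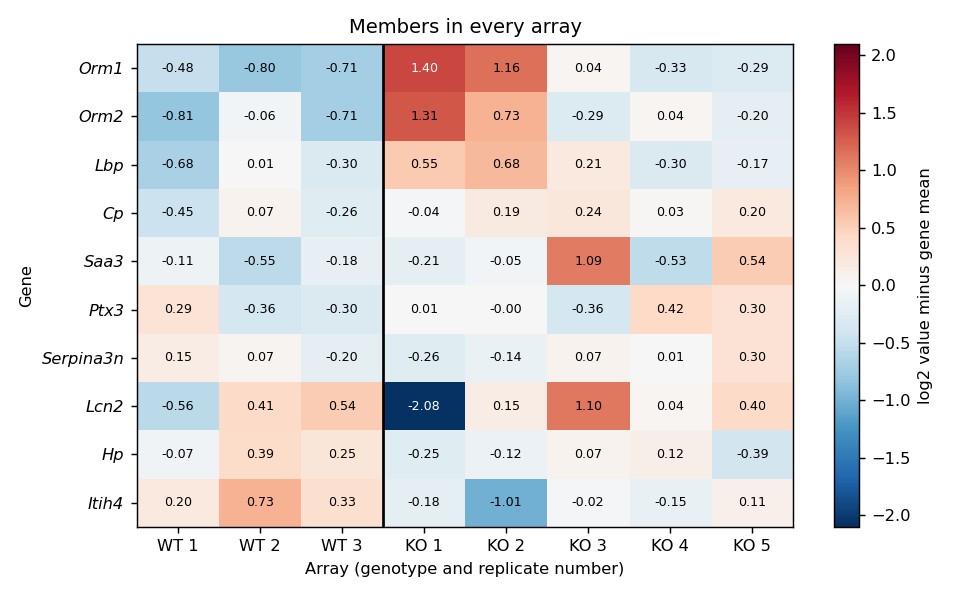
Log2 value of each member minus its mean over the 8 arrays (colour and number), by array. Orm1 is highest in KO 1 and KO 2 (1.16), Lcn2 is lowest in KO 1 (-2.08) and highest in KO 3 (1.10), and Itih4 is lowest in KO 2 (-1.01).

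The inducers of the response and their signalling were measured by 33 of 35 listed genes, of which 26 were tested. None passed the adjusted threshold, 12 were higher and 14 lower in KO, and the median log2 fold change was -0.02 (-0.03 over all tested genes). The smallest unadjusted p belonged to Stat3, the factor downstream of interleukin-6. It was at 10.08, 9.69 and 9.85 in WT and at 9.14, 8.97, 9.34, 9.55 and 9.51 in KO 1 to KO 5. All KO arrays were below all WT arrays, a difference of -0.57 on the log2 scale (SE 0.166, limma adjusted p = 0.309). Next were the NF-kB inhibitor Nfkbia (0.43), the adipocyte factor Cebpa (0.32) and Tsc22d3, a glucocorticoid-induced gene (0.46), with adjusted p of 0.450 to 0.460. The cytokines Il6, Il1b and Tnf, picked after their values were seen, had means below the level filter, and their groups overlapped. Il1b was nonetheless at 3.79, 3.05, 2.86, 2.41 and 2.42 in KO 1 to KO 5, against 2.57 to 2.70 in WT. Cebpd, picked in the same way, was at 5.74 and 4.92 in KO 1 and KO 2, above WT (3.58 to 4.54). Socs3 was at 4.65 and 4.55 there, below WT (4.74 to 5.78). The part of these genes in the members' values was not tested.

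Receptors, partners and targets of the members were measured by 27 of 28 listed genes, 20 of them tested, with 10 higher and 10 lower in KO and none past the adjusted threshold. Ly96, the MD-2 subunit that binds lipopolysaccharide beside TLR4, differed by 0.66 on the log2 scale (SE 0.220, adjusted p = 0.352), and Tlr4 by -0.36 (SE 0.161, adjusted p = 0.473). Cd14, the co-receptor that takes lipopolysaccharide from Lbp, was at -0.37 (SE 0.229, adjusted p = 0.594). Thus the 3 receptor genes of the Lbp pathway did not share a direction. For Lrp1, a scavenger receptor, the 5 KO values (9.62 to 10.03) all lay below those of WT (10.17 to 10.34), a difference of -0.45 (SE 0.134, limma adjusted p = 0.313).

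Other acute phase genes that increase in liver were measured by 28 of 36 listed genes, and 18 of the 28 lay below the level filter. Of the 10 tested, 3 were higher and 7 lower in KO, none had an unadjusted p under 0.05, and the median log2 fold change was -0.11. After Serpina1a (-0.65, SE 0.311, adjusted p = 0.495) and Orm3, the smallest unadjusted p belonged to Serping1 (-0.15), the C1 inhibitor, and Steap4 (0.29), a metalloreductase of adipocytes. Of 10 genes that decrease in the liver's response, 8 were measured and 5 tested, with 1 higher and 4 lower in KO and a median log2 fold change of -0.38. Ahsg, or fetuin-A, was at -0.47 (SE 0.194, adjusted p = 0.440), Alb at -0.47 (SE 0.205, adjusted p = 0.461), Apoa2 at -0.38 and the retinol carrier Rbp4 at 0.24. Of the 8 hepatocyte markers, 5 lay below the level filter, among them Cps1 and Cyp3a11, while Cyp2e1 was at 12.78 to 13.03 in all 8 arrays.

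Markers of the cells that can make these proteins were compared by list mean. Adipocyte markers ranged from 10.83 to 10.99 in WT and from 10.56 to 11.13 in KO, macrophage markers from 7.01 to 7.25 and from 6.75 to 7.30, and fibroblast markers from 7.99 to 8.26 and from 7.97 to 8.19. These 3 lists overlapped between genotypes. Endothelial markers did not, with 8.45 to 8.79 in WT and 7.90 to 8.44 in KO, but WT 1 (8.445) and KO 5 (8.436) nearly met. Gene by gene, only Kdr, 1 of the 6, had groups that did not overlap, against 8.53% of all tested genes. All 6 genes had lower means in KO, as had 6121 of the 11090 tested genes. The part of cell composition in the members' values was not tested.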

How the data were processed

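RNA of each mouse was hybridised to 1 Affymetrix mouse gene array. The deposited log2 values were made by the authors with RMA. RMA and the package oligo stand in the submitters' processing notes and Expression Console in the series' design text. The sources used here give no versions, annotation or build. Values were used as deposited.

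Probe sets were named from the platform annotation, with symbols updated by Entrez identifier. Of 41345 probe sets, 23521 had 1 symbol, 1814 several and 16010 none listed. Each gene kept its probe set of highest mean (22180 genes), and the 11090 with a mean of at least 3.61 were tested with limma 3.58.1 (R 4.3.3), two-sided, Benjamini-Hochberg threshold 0.05. Single values were compared by an exact permutation test (56 splits). The procedure was tested on simulated data in which 200 of 11090 genes were changed. It called 0% of genes changed by 0.5 log2 units, 69% of those changed by 1 and 97.1% of those changed by 2. Unchanged genes made up 5.96% of the calls at a change of 1 and 6.22% at 2.

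The members and lists were chosen with earlier results of these data known. Named genes were all members, up to 4 tested genes of smallest p per list, defining markers, and the 5 genes nearest in pattern to each of the 3 members of widest range. Deviations of same-numbered WT and KO arrays from their group means were weakly correlated (0.133, 0.103 and 0.192). Arrays of different numbers were not compared, so these values do not show that equal numbers belong together. The number served as a block in an alternative fit. Other alternatives changed the probe set, filter, centring, weights, prior and arrays. The number of arrays limits the precision.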

Additional observations from a re-analysis of the deposited data

Results flagged for a closer look

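Among the 5 KO arrays, Itih4 in KO 2 (3.169) lay far from the nearest other KO array (3.994). The mean of the mesothelial markers was set apart in KO 1 (5.435, against 5.863 in the nearest). In KO 4 the same held for the mean of the epididymis and seminal duct markers (4.132, against 2.277) and of the testis markers (5.214, against 4.138), which were higher still in WT 1 (6.83) and WT 2 (5.57). In each case the gap exceeded 0.710 of the group's range, which chance alone gives in about 1 of 20 groups, and 26 genes or list means were examined in this way.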

How the results depend on the processing

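No member passed the adjusted threshold under any of the 17 alternative fits in limma, and the median log2 fold change of the members ranged from 0.22 to 0.38. Directions held in all alternatives for Orm1, Orm2, Itih4, Hp, Cp, Saa3 and Lbp, and in the 15 run for Ptx3, which has no fit with array weights, a trended and robust prior or the replicate block. Lcn2 turned from -0.21 to 0.39 without KO 1 and KO 2, and ranged from -0.55 to 0.29 (the latter without KO 1) when single arrays were left out. Serpina3n (-0.01) turned to 0.024 with each array centred on its median, 0.0603 without WT 1 and KO 4 and 0.12 without KO 1 and KO 2. When single arrays were left out it ranged from -0.11 to 0.0644, with 0.0644 without WT 1, 0.02 without WT 2, 0.05 without KO 1 and 0.02 without KO 2. The cause was not tested. The count of members with an unadjusted p under 0.05 was 2 without KO 1 and KO 2 (1052 over all genes). It was 1 to 5 when single arrays were left out (745 to 1596 over all genes). The count of members with no overlap was then 2 to 4, with no share over all genes computed for these settings. Over all genes, 40 passed the adjusted threshold with array weights, 3 with a trended and robust prior, 2 with the replicate block and 0 to 5 when single arrays were left out. Genes with an unadjusted p under 0.05 numbered 1873 with array weights, 1997 with the replicate block, 1871 with no filter on low values (more genes tested), 732 without WT 1 and KO 4 and 745 to 1596 when single arrays were left out. With the replicate block, which rests on KO 1 to KO 3, no member passed the adjusted threshold, and Lbp had an unadjusted p of 0.00420 in limma (0.0668 without the block).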

Other observations

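Some genes beside the members shared features with them, and all in this paragraph were picked after their values were seen. Lrp2, the endocytic receptor megalin that takes up lipocalin 2, was at 4.00 in KO 1 and at 5.43 to 7.40 in the other 7 arrays, so that its lowest array was also that of Lcn2. Cfb, complement factor B, was at 7.94, 8.35 and 8.31 in WT and at 9.002, 8.88, 8.70, 8.05 and 7.72 in KO 1 to KO 5, above WT in 3 KO arrays and below the highest WT array in the others (log2 fold change 0.27, SE 0.286, limma adjusted p = 0.776). Mt1 and Mt2, metal-binding proteins induced in the acute phase, had log2 fold changes of -0.03 and -0.15 (limma adjusted p = 0.956 and 0.846). Ltf, the lactoferrin gene listed as a neutrophil marker, was at 5.59 in KO 4 and at 2.22 to 2.59 in the other arrays.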
